A study of Mus musculus with 4 samples.

Results

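The genes described here are 10 genes of the machinery that writes and removes N6-methyladenosine (m6A) on RNA, the most frequent internal modification of messenger RNA. They were chosen by name and not by any measured value. The 2 genes of the catalytic core are Mettl3 and Mettl14, the 6 genes of associated writer proteins are Wtap, Virma, Rbm15, Rbm15b, Zc3h13 and Cbll1, and the 2 demethylase genes are Alkbh5 and Fto. They were looked up among 9225 Ensembl gene IDs that the authors list as related to peaks differing between GR and control cells, and 6 of the 10 were found.

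The cells were MIN6, a mouse insulinoma line of C57BL/6 origin (per the labels) that stands in for the pancreatic beta cell in culture. One arm received a plasmid expressing GR, read here as the glucocorticoid receptor, and the other a control plasmid, 10 µg per dish in both arms, with RNA taken 24 hours later. In the GR arm there was 1 library from immunoprecipitation with an anti-m6A antibody and 1 input library, and in the control arm likewise, 4 libraries in all. The plasmids went in by lipid transfection, and the promoter that drives GR and the share of cells that took up plasmid are not given in the sources used here. None of the tables used gives a value for a single library, only results of setting GR against control. The sequencing depth is therefore unknown, the labelled cell type could not be checked against its markers, and nothing below has a replicate check or a test over samples.

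The writer is a nuclear complex. METTL3 binds S-adenosylmethionine and transfers its methyl group to adenosine, METTL14 is its partner without catalytic activity and helps to hold the RNA, and the associated proteins place the pair on transcripts and in nuclear speckles. ALKBH5 and FTO are iron-dependent and 2-oxoglutarate-dependent dioxygenases that take the methyl group off again. The transcripts of these genes can themselves carry m6A, and the question put to the files is which of them the authors linked to a peak that differed when GR was expressed.

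Mettl3, Wtap, Rbm15, Rbm15b, Zc3h13 and Alkbh5 were in the gene table, and Mettl14, Virma, Cbll1 and Fto were absent by Ensembl ID and by symbol. The 6 of 10 listed genes (60%) stand beside 5526 of all 21900 protein-coding genes of the reference (25.2%). Each class of the machinery was thus represented and each was incomplete, with 1 of 2 genes for the catalytic core, 4 of 6 for the associated proteins and 1 of 2 for the demethylases. Classes of this size allow no order between them. The table gives no direction, size or position of a peak, so it cannot be said whether m6A on any of these transcripts was higher or lower in GR cells. The files used give no RNA level, so listing could not be set beside expression. The 25.2% therefore counts every protein-coding gene, whether or not these cells express it.

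**Figure D1:**
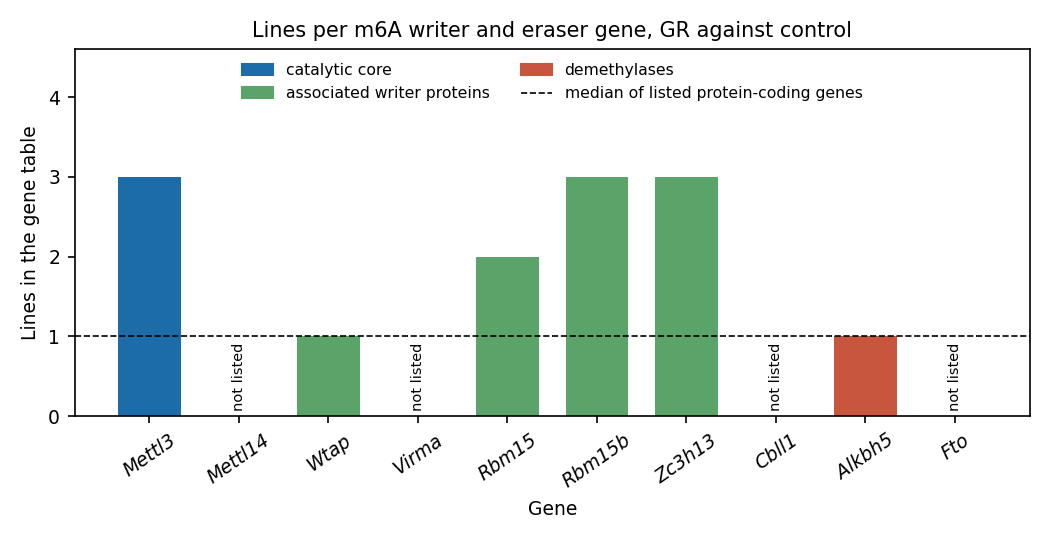
Number of lines in the authors' gene table (vertical axis) for each of the 10 genes (horizontal axis), coloured by role; the dashed line is the median of all listed protein-coding genes, 1 line. Mettl3, Rbm15b and Zc3h13 stand at 3 lines, Rbm15 at 2, Wtap and Alkbh5 at 1, and 4 genes have none.

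A gene can occupy several lines of the table, whose meaning the authors do not explain. In the catalytic core, Mettl3 (ENSMUSG00000022160) had 3 lines, whereas Mettl14 (ENSMUSG00000028114), whose protein forms a tight pair with METTL3, had 0. The core was therefore listed through the gene of its catalytically active subunit. Mettl3 lies on chromosome 14 at 52294841 to 52308741 in GRCm38.p6, the assembly from which mm10 is made, and Mettl14 on chromosome 3 at 123368295 to 123385990. The 3 lines of Mettl3 were identical, as were the repeated lines of every gene, so they carry no more than their number.

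The associated writer proteins, 6 of the 10 genes, held 9 of the 13 lines of the whole group. Rbm15b and Zc3h13 had 3 lines each, Rbm15 had 2 and Wtap had 1. RBM15 and RBM15B are paralogous RNA-binding proteins that bring the writer to particular transcripts, ZC3H13 keeps the complex in the nucleus, and WTAP anchors METTL3 and METTL14 in nuclear speckles. Virma and Cbll1 had 0 lines. VIRMA is the large scaffold of the associated proteins and is linked to methylation near stop codons and in 3' UTRs, and CBLL1 (HAKAI) is a RING-type ubiquitin ligase that is also a stable part of the complex. Of these 6 genes 4 were thus listed (66.7%), beside 25.2% of all protein-coding genes. So few genes allow no pattern by the function of the proteins.

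Of the demethylases, Alkbh5 had 1 line and Fto had 0. ALKBH5 acts in nuclear speckles on internal m6A, and FTO also acts on the methylated adenosine next to the cap of messenger RNA. Fto is by far the longest of the 10 genes, spanning 355067 bp on chromosome 8, against 20830 bp for Alkbh5 on chromosome 11. When all protein-coding genes were divided into 10 classes of length, the share listed was lowest at both ends. Length here is the genomic span with introns, and the length of the transcript was not used. It was 5.02% in the class of shortest genes, 32.6% for genes of 11630 to 17144 bp, and 17.4% in the class of longest genes, where Fto falls. For the other 3 absent genes the share in their length class was 29.1% (Mettl14), 23.8% (Virma) and 32.6% (Cbll1). For the 6 listed genes it ran from 23.8% for Zc3h13 to 32.6% for Mettl3, the same range as for the absent genes other than Fto.

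Among the listed members the median was 2.5 lines, against 1 line for all listed protein-coding genes. On 2 or more lines there were 4 of the 10 members, against 11.2% of all protein-coding genes, and on 3 or more lines there were 3 of the 10, against 4.89%. A gene on 3 lines is not rare among listed genes, since 1071 of 5526 (19.4%) had at least as many as Mettl3, Rbm15b and Zc3h13, and the highest count was 39. The counts of the members are small, and no test is attached to them. Over all listed protein-coding genes, the number of lines and the genomic span had a Spearman correlation of -0.09, given as a description only. Within the group, the 3-line genes included the shortest member, Rbm15b (6148 bp), and one of the longest, Zc3h13 (60128 bp).

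**Figure D2:**
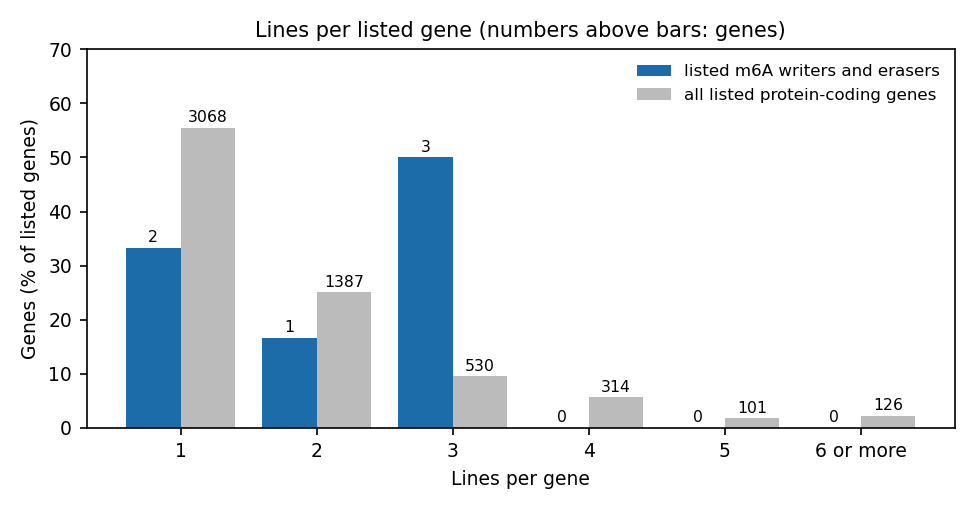
Lines per gene (horizontal axis) against the percentage of listed genes (vertical axis) for the 6 listed m6A writers and erasers and for all 5526 listed protein-coding genes, with the number of genes above each bar. The members sit at 1, 2 and 3 lines, with 3 of the 6 at 3 lines, where 530 of all listed genes are found.

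Some listed members share bases with a neighbouring gene in the reference. Mettl3 and Tox4 share 669 bp, and Tox4 was itself on 1 line. Rbm15b shares 65 bp with Dcaf1, which was also on 1 line. A peak in such a stretch could be linked to either gene, and which gene the authors assigned it to cannot be told from the table. Rbm15 overlaps Slc16a4 over 6605 bp, and Slc16a4 was not listed. Wtap and Alkbh5 overlap no other gene of the reference, while Zc3h13 overlaps only a pseudogene that was not listed. Of the absent members, Cbll1 and Fto each overlap a long non-coding RNA gene that was not listed either, and Mettl14 and Virma overlap none.

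Absence from the gene table is weak information. The authors' separate table of differing peaks in autophagy genes names 22 genes. Of these, 13 were not found in the gene table by the Ensembl ID of their symbol, although each has a deposited peak. A symbol without a reference ID would also count as not found. None of the 10 genes is in that autophagy table, the only one with peak positions and fold changes. The absence of Mettl14, Virma, Cbll1 and Fto therefore does not show that their transcripts lacked a differing peak.

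The third column of the gene table holds protein domain names, which follow from the identity of each gene and describe no peak. How many genes of the reference carry each name was not counted, so the counts below have no background share. For Mettl3 they name the MT-A70-like family of adenosine methyltransferases and the S-adenosylmethionine-dependent methyltransferase fold. Only 2 listed genes carry the MT-A70-like name, and the other is Mettl4, on 2 lines, whose protein is a relative of METTL3. For Alkbh5 the AlkB-like dioxygenase name is shared with Alkbh2, Alkbh6 and Alkbh7, 4 listed genes in all. Rbm15 and Rbm15b carry 9 domain names each, among them RNA recognition motifs and the SPOC domain of the Spen family. The SPOC name occurs in 3 listed genes, the third being Spen itself, on 3 lines, a nuclear co-repressor of the same family. The CCCH-type zinc finger of Zc3h13 is common, with 30 listed genes, and the WTAP/Mum2 family name belongs to Wtap alone.

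Other genes of RNA methylation and related genes were looked up by lists made from textbook knowledge. The related genes were the AlkB family and the supply of S-adenosylmethionine, and not all of them are known here to act on RNA. Of the 51 genes on these lists 21 were listed (41.2%), again beside 25.2% of all protein-coding genes. The m6A readers, proteins that bind the modified base, had the highest share of these lists, 7 of 10 (70%). Ythdc1 had 6 lines, Ythdf2, Ythdf3 and Hnrnpa2b1 had 2 each, and Ythdf1, Ythdc2 and Hnrnpc had 1 each, while Igf2bp1, Igf2bp2 and Igf2bp3 were absent. The writer and eraser share of 60% lay between that of the readers and those of the 4 lists that follow, and none of these differences was tested.

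The other enzymes that methylate adenosine at N6 were listed for 2 of 6 genes (33.3%). Pcif1, which methylates the adenosine next to the cap, had 4 lines and Mettl4 had 2, whereas Mettl16, which acts on U6 RNA and on Mat2a, was absent, as were Mettl5 and Zcchc4, which act on ribosomal RNA, and Trmt112, the partner of METTL5. In the AlkB family outside Alkbh5 and Fto, 4 of 7 genes (57.1%) were listed, Alkbh2 and Alkbh4 on 3 lines and Alkbh6 and Alkbh7 on 1, while Alkbh1, Alkbh3 and Alkbh8 were absent. The Gene Ontology terms for RNA demethylation that held Alkbh5 held none of these 4 listed genes in the authors' deposited table. Enzymes that methylate other bases, riboses or the cap of RNA had a share close to the background in this list, 6 of 22 (27.3%). These were Ftsj3 with 3 lines, Cmtr2 with 2, and Nop2, Trmt61a, Trmt61b and Trmt10c with 1 each. The list is partial, since the Gene Ontology term RNA methyltransferase activity had 21 of 56 genes (37.5%) in the authors' deposited table. Of these 21 genes, 20 were outside the writers and erasers. The 37.5% stood above the 26% of Gene Ontology background genes found in the lists. It stood below the 48.3% that the totals of that table would make. Over all 8064 terms of 10 to 500 background genes, the upper quartile was also 37.5%, so such a share is not unusual for a term. The list made for the supply of S-adenosylmethionine took in Ahcy and its relatives Ahcyl1 and Ahcyl2, whose part in that supply was not checked. Of its 6 genes 2 (33.3%) were listed, Mat2a, which makes the methyl donor, and Ahcyl1, each on 1 line. Mat1a, Mat2b, Ahcy and Ahcyl2 were absent.

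**Figure D3:**
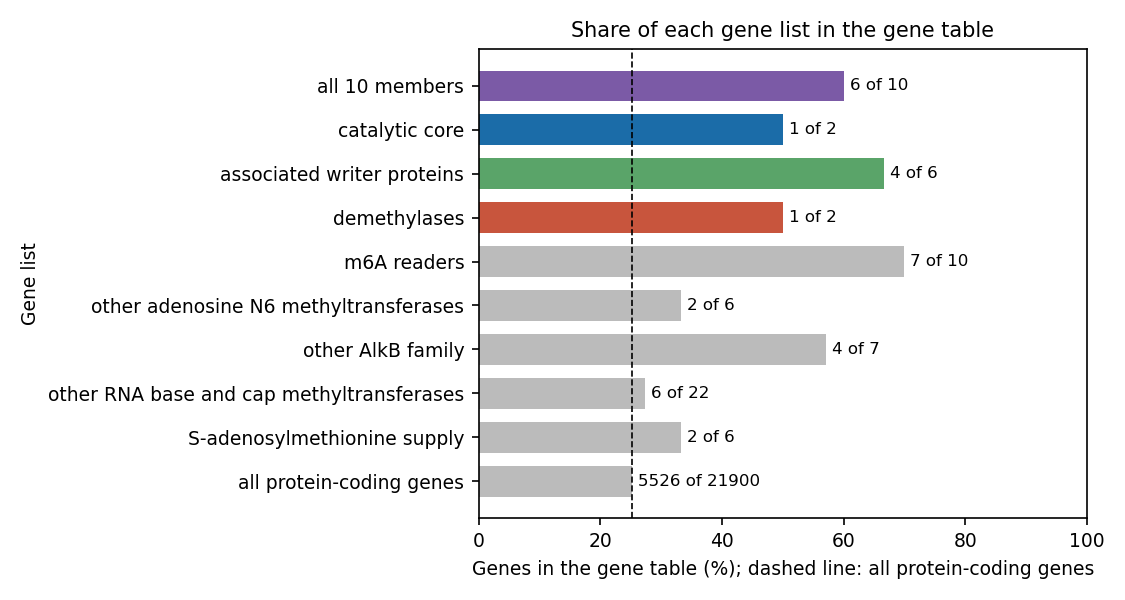
Percentage of the genes of each list (vertical axis) that are in the authors' gene table (horizontal axis), with the number of listed genes of the list beside each bar; the dashed line marks the 25.2% of all protein-coding genes. The 10 writers and erasers stand at 60%, the m6A readers at 70%, and the partial list of 22 other RNA base and cap methyltransferases at 27.3%, near the line.

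The authors also deposited a Gene Ontology (GO) table, which names for each term the genes with a peak. The 6 listed genes occur in 366 of its 16568 terms, and the 4 absent genes in none. The GO gene lists hold 5409 distinct gene IDs, all of them in the gene table, so the 2 tables are not independent. These IDs are 26% of the 20770 background genes that the table gives. Its own total of 10022 genes with a peak would make 48.3%, and what that total counts is not explained. The raw and adjusted p-values in the authors' deposited table are 1 for every term, so they rank no term.

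The term closest to the group is the RNA N6-methyladenosine methyltransferase complex, with 5 of 8 genes listed (62.5%) in the authors' deposited table. The 5 are Mettl3, Wtap, Rbm15, Rbm15b and Zc3h13, and the term held no other listed gene. They are the 5 listed genes among the 8 writer genes, so this share repeats the count given above and is no further result. The table does not name the 3 remaining background genes. The wider mRNA editing complex had the same 5 among 9 genes in the authors' deposited table. The mRNA methylation term held 6 of 12 genes (50%) in the authors' deposited table. Mettl3, Wtap and Zc3h13 were joined there by Cmtr2, Trmt10c and Trmt61a, which act on the cap or methylate adenosine and guanine at N1. RNA methylation as a whole held 27 of 68 genes (39.7%) in the authors' deposited table. The same 5 writer genes stood there beside 22 others, mainly enzymes of ribosomal and transfer RNA such as Mrm1, Mrm2, Mrm3, Dimt1, Trmt5 and Ftsj1. The general methylation term, outside the name rule, held the same 5 among 114 of 340 genes (33.5%) in the authors' deposited table. The methyltransferase complex term, with 49 of 112 genes (43.8%) in the authors' deposited table, joins the 5 writer genes to histone methyltransferase subunits such as Ezh2, Suz12, Eed and Setd1a.

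The 5 terms named for methyltransferase activity that were selected by name (RNA with methyl, methyladenosine, demethyl or methyltransferase in the name) held Mettl3 as their only member of the group. RNA methyltransferase activity had 21 of 56 genes (37.5%), mRNA methyltransferase activity 4 of 9 (44.4%) and S-adenosylmethionine-dependent methyltransferase activity 54 of 140 (38.6%) in the authors' deposited table. Methyltransferase activity as such had 67 of 203 genes (33%) in the authors' deposited table. The methylation of primary miRNA was a term of 1 gene, Mettl3, in the authors' deposited table. The term for N6-methylation of 2'-O-methyladenosine had Mettl3 as 1 of 3 genes in the authors' deposited table.

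Of the 10 genes, demethylation terms held Alkbh5 only. Oxidative RNA demethylation and oxidative RNA demethylase activity each had 1 of 4 genes, and oxidative single-stranded RNA demethylation 1 of 3, in the authors' deposited table. Oxidative demethylation had 2 of 10 genes (20%), Alkbh5 and Alkbh2, in the authors' deposited table. Demethylase activity had 9 of 38 genes (23.7%) and demethylation 16 of 64 (25%) in the authors' deposited table, near the 26% of the background, and both also list histone demethylases such as Kdm1a, Kdm2a, Kdm3a and Kdm5a. Among the 16 terms selected by name, shares ran from 20% to 33.3% for those held by Alkbh5 alone and from 33% to 100% for those held by writer genes, and this difference was not tested, as the terms overlap in genes and some hold only 1 gene. The ranges overlap, and each term was kept only if it held a member, so the shares of the smallest terms follow partly from their size. Other terms that hold a member fall outside these ranges. Chemokine-mediated signaling, which held Rbm15, had 10 of 84 genes (11.9%) in the authors' deposited table. A 2-oxoglutarate-dependent oxidoreductase term, with Alkbh5 as its only member, had 15 of 43 (34.9%) there.

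All 6 listed members were held together by 41 terms, and the 5 smallest of these were RNA modification (53 of 141 genes, 37.6%), nuclear speck (160 of 379, 42.2%), mRNA processing (186 of 450, 41.3%), mRNA metabolic process (257 of 614, 41.9%) and nuclear body (301 of 732, 41.1%) in the authors' deposited table. These broader classes of nuclear RNA-processing genes, to which the writers and erasers belong, also had shares above the 26% from distinct IDs. All 5 shares were below the 48.3% from the GO totals, so the comparison depends on the background chosen. Over the 120 terms of 10 to 500 background genes that hold a member, the median share was 34.3% (quartiles 29.5% and 38.7%), against 30.3% (23.9% and 37.5%) over all 8064 terms of that size. A term that holds a listed member cannot have a share of 0, and terms share genes, so the 2 medians are a description.

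**Figure D4:**
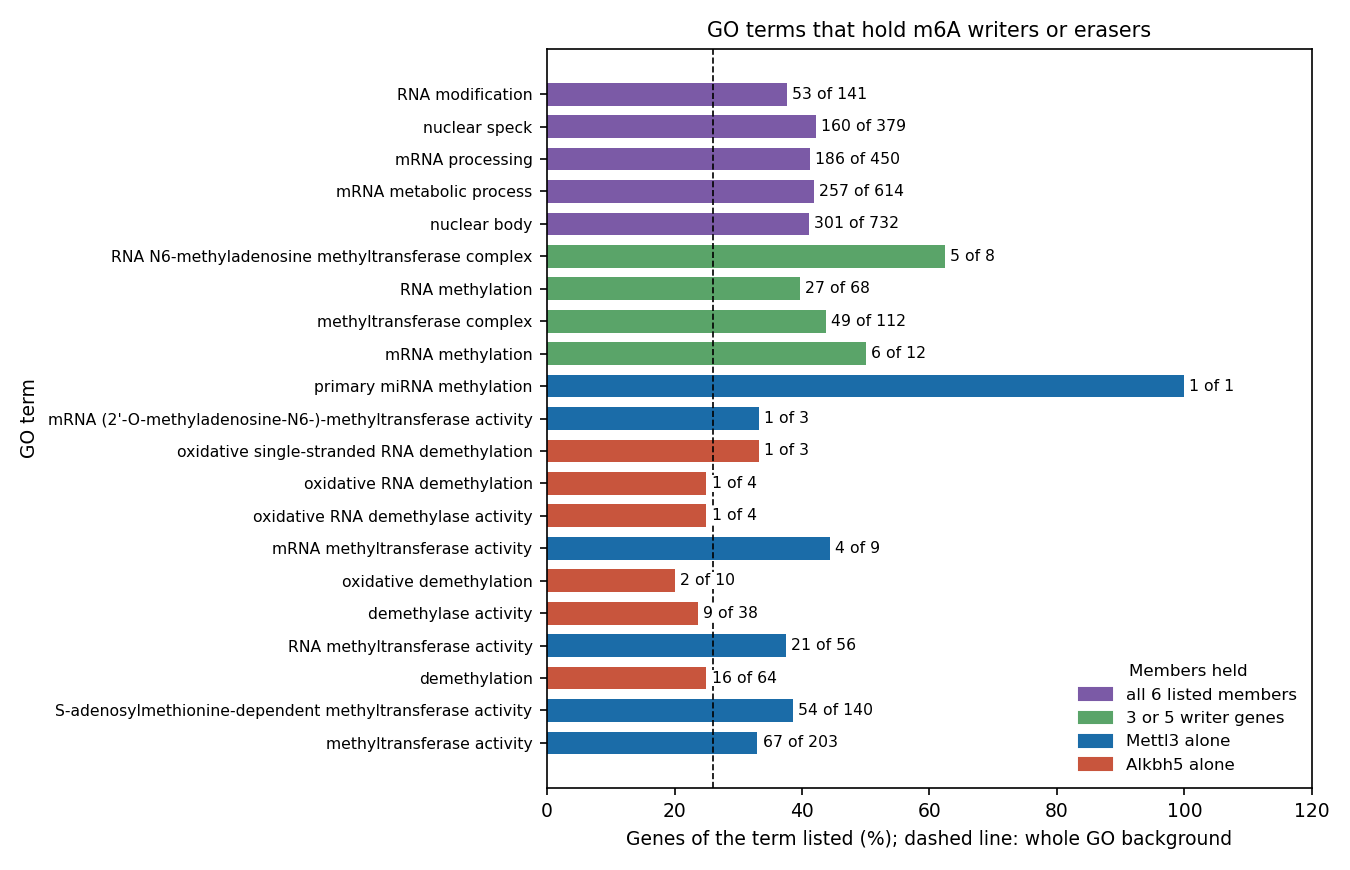
Percentage of the background genes of a GO term that are listed with a peak (horizontal axis), for the 5 smallest terms that hold all 6 listed members and the 16 terms that hold any and have RNA with methyl, methyladenosine, demethyl or methyltransferase in their name (vertical axis), coloured by the members held, with gene counts beside the bars. The dashed line is the 26% of background genes found among the distinct IDs of the GO lists, not the 48.3% of the GO totals. The methyltransferase complex for N6-methyladenosine stands at 62.5%, through the 5 listed writer genes only. The plotted terms held by Alkbh5 alone lie between 20% and 33.3%.

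The members were annotated unequally. Rbm15 occurred in 227 terms, Mettl3 in 172, Rbm15b in 117, Alkbh5 in 115, Wtap in 88 and Zc3h13 in 68. Rbm15 was the only member in 103 of its terms, some of them on blood and vessel development, such as regulation of megakaryocyte differentiation with 11 of 30 genes (36.7%) in the authors' deposited table. Mettl3 was the only member in 67 of its terms, among them the small term cap-independent translational initiation with 4 of 5 genes (80%) and primary miRNA processing with 7 of 9 (77.8%) in the authors' deposited table. The term for dosage compensation by inactivation of the X chromosome held Mettl3, Rbm15 and Rbm15b among 11 listed of 20 genes (55%), and regulation of alternative mRNA splicing held Wtap, Rbm15 and Rbm15b among 30 listed of 67 (44.8%), in the authors' deposited table. Alkbh5 and Rbm15b were both in mRNA export from the nucleus, with 21 of 53 genes (39.6%) in the authors' deposited table. The terms named in this paragraph were chosen after their values were seen. The background was 26% from distinct IDs, or 48.3% from the GO totals. Some other terms with 1 member had lower shares in the authors' deposited table. With Mettl3 these were gene silencing by miRNA (42 of 152, 27.6%) and sulfur compound binding (50 of 238, 21%). With Rbm15 it was response to chemokine (13 of 93, 14%). None of the 290 pathways of the authors' KEGG table, whose lists hold 2333 distinct gene IDs, contained any of the 10 genes.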

How the data were processed

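The labels' protocols describe fragmented RNA precipitated with an anti-m6A antibody and sequenced in read pairs of 150 bp, with input libraries. HOMER 4.9.1, BWA 0.7.12 and the build mm10 are named in the submitters' processing notes. The program and thresholds behind the differing peaks are not given in the sources used here. The gene table was deposited without header or values (17052 lines, 9225 gene IDs). The deposited GO table gives counts of genes, not reads, and p-values, per the file headers. In it, 63 overflow lines were joined to their terms, after which all 16568 lists matched the deposited counts.

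Lines were counted per Ensembl ID, and 9217 IDs matched a reference name. Coordinates, spans and gene classes came from RefSeq GRCm38.p6. Protein-coding genes were divided into 10 classes of length by genomic span. No test was made, as the files used hold no values per library. The genes, lists and term rule (RNA with methyl, methyladenosine, demethyl or methyltransferase in the name, at least 1 member, plus the 5 terms with most members, smallest first) were chosen with earlier results of these data known. Terms named beyond that rule were chosen after their values were seen. Counting used Python 3.11.15 with SciPy 1.17.1 and NumPy 2.4.6, figures used Matplotlib 3.10.9, and the counting was tested on simulated data. Alternatives were matching by deposited symbol, a minimum of 2 lines, other backgrounds and the GO lists.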

Additional observations from a re-analysis of the deposited data

How the results depend on the processing

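The count of 6 listed members was 6 by deposited symbol and 4 with a minimum of 2 lines, and the counts by role (1, 4 and 1) were unchanged in the GO lists, which repeat the gene table and are no independent check. The background of 25.2% depends on its definition. It was 48.3% with the totals of the GO table, whose 10022 genes with a peak exceed the 9225 IDs of the gene table, 11.2% with a minimum of 2 lines (beside 4 of the 10 members), 27% without olfactory and vomeronasal receptor genes, and, added after seeing the data, 26% with the distinct IDs of the GO lists. The 13 lines of the members were 6 with identical lines counted once. Settings added later gave 120 in place of 366 GO terms with 10 to 500 background genes, and 20 by deposited symbol or 10 with 2 or more lines in place of 21 other listed genes. No paired analysis was possible because each arm has 1 library of each kind and the files hold no values per library. Depth is unknown, so what it limits cannot be stated.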
